A study of Mus musculus with 23 samples.

Results

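Expression of 10 genes of cholesterol efflux and lipid droplets was followed in renewed and resident microglia: Abca1, Abcg1, Nr1h2, Nr1h3, Mylip, Plin2, Plin3, Dgat1, Dgat2 and Cd36. They were picked by symbol, for what the genes are known to do, from the 53090 genes in the deposited tables, and all 10 passed the filter on low counts that left 18720 genes for testing. Messenger RNA was measured in brain microglia of female C57BL/6 mice in 23 libraries: 7 young (Y), 3 young repopulated (Y-re), 5 old (O) and 8 old repopulated (O-re). PLX5622, an inhibitor of the receptor CSF1R on which microglia depend for survival, was fed in AIN-76A chow at 1200 ppm to remove microglia, and treatment controls ate the same chow free of the drug. The repopulated groups hold the microglia that refill the brain after such removal. No age, treatment length or refilling time is given in the sources used here. The protocols describe both CD11b magnetic selection with culture and flow-sorted microglia, and the RNA text names the sorted cells. Nothing in the labels says which libraries share an animal, a cage or a day, so p-values measure the spread between these libraries.

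Cells turn some of their surplus cholesterol into oxysterols, which activate the liver X receptors LXR-alpha (Nr1h3) and LXR-beta (Nr1h2). These receptors switch on the lipid exporters Abca1 and Abcg1 and the ubiquitin ligase Mylip, which marks lipoprotein receptors for destruction and so limits cholesterol uptake. Lipid that is not exported is stored as cholesteryl ester or triglyceride in droplets coated by perilipins such as Plin2 and Plin3, and Dgat1 and Dgat2 carry out the last step of triglyceride synthesis. Cd36 is a surface receptor for oxidised lipoproteins and fatty acids. In the brain, microglia take up cholesterol-rich myelin debris and pass its cholesterol on, and droplet-laden microglia have been described in ageing.

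LXRs bind DNA with RXR at direct repeats of a receptor half-site spaced by 4 bases (DR4). The RefSeq promoter table for GRCm38.p6 held a window for 7 of the 10 genes, 8 windows in all, and Abcg1, Dgat1 and Dgat2 had no entry. A window is the 250 bases before an annotated start, and 2 of them are printed because they are the windows free of exon bases in which a nuclear receptor motif was found. In the Abca1 window (chr4:53159896-53160145, minus strand) the capitals mark a match to the relaxed DR4 pattern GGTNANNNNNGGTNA, read on the opposite strand, at bases -67 to -53 from the start. In the Cd36 window (chr5:17835897-17836146, minus strand), which lies inside the Cd36 gene span, the capitals mark the half-site AGGTCA, again on the opposite strand, at -228 to -223.
Abca1: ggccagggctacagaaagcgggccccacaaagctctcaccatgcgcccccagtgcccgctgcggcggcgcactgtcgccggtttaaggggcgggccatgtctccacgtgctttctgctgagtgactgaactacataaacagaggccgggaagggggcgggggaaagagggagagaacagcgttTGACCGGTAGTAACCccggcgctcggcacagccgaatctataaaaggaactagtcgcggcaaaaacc
Cd36: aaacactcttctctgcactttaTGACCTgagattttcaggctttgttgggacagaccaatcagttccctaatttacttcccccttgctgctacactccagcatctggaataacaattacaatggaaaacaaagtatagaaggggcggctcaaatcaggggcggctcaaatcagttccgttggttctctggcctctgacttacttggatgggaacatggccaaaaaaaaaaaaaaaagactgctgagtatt
Both strands of all 32851 RefSeq windows of this length were searched. The relaxed DR4 pattern was found in 0.621% of them, and the half-site, which can be part of a DR4 or DR1 element, in 14%. The half-site was also found in the Plin2 window, at -218 to -213. The relaxed DR1 pattern GGTNANNGGTNA (0.938% of all windows) and GAGGAAG, the core bound by the macrophage factor PU.1 (10.6%), were in none of the windows of these genes. A match describes letters only, and no binding was measured.

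Total counts lay between 43.66 and 58.19 M per library, where M stands for 1000000. Young replicate 3 stood apart on the second principal component, at -177 where the other libraries lay between -26.0 and 33.3, and it had the fewest genes with a count, 16399. The sample titles number the libraries, and numbers 1 to 11 (3 young, 2 old, 5 old repopulated) differed from numbers 12 to 24 (4 young, 3 old, 3 old repopulated, 3 young repopulated): the old repopulated versus young change itself differed between the runs for 261 of all genes (1.39%), a test added after the data were seen, and the old versus young change for 0. The labels do not say what a run of numbers stands for, so results are also given within each run. All 10 microglia markers, such as P2ry12 and Tmem119, were present in every library. Markers of monocytes, neutrophils and border-associated macrophages were present too and differed between groups, as described with the results they move with. In bulk RNA, fewer cells of a type and less RNA per cell cannot be told apart.

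Levels are given in CPM, counts per 1000000 counts of the library. Per kilobase of effective length, the scale on which genes can be compared, Plin2 was the highest of the 10 genes in every group, at 326 ± 81.7 CPM per kb in young libraries (SD, n = 7). Abca1 came next at 108 ± 26.3 CPM per kb, followed by Mylip at 83.1 ± 11.9, Abcg1 at 62.7 ± 9.68 and Nr1h2 at 46.3 ± 5.37 (SD, n = 7). The ranges of Abca1 and Mylip, of Mylip and Abcg1, and of Abcg1 and Nr1h2 overlapped in young libraries, so those places in the order were not separated. Plin3 at 14.6 ± 2.17 and Dgat1 at 14.4 ± 1.25 were alike in level, and Cd36 at 5.43 ± 2.14, Dgat2 at 1.79 ± 1.43 and Nr1h3 at 1.44 ± 0.589 CPM per kb were the lowest (SD, n = 7). In old repopulated libraries Cd36 stood in place 6, at 40.4 ± 32.0 CPM per kb, and Nr1h3 averaged 9.82 ± 7.82 (SD, n = 8). Nr1h2 was the dominant LXR in every library. Nr1h3 made up a median of 2.58% of both LXR transcripts per kb in young, 8.18% in young repopulated, 16% in old and 14.4% in old repopulated libraries, with ranges of 2.08 to 5.32%, 5.9 to 13.5%, 3.83 to 28.5% and 2.25 to 28.8%.

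**Figure D1:**
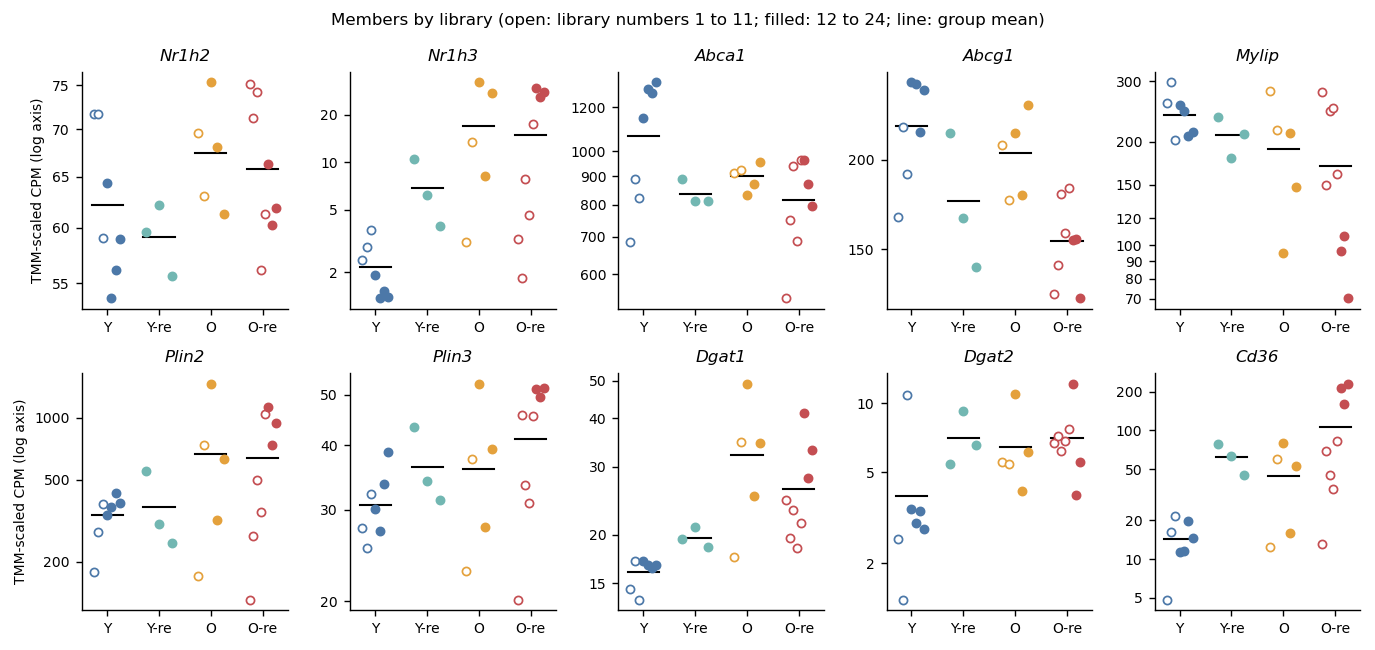
Level of each of the 10 genes in every library, as TMM-scaled CPM on a log axis, for young (Y), young repopulated (Y-re), old (O) and old repopulated (O-re) mice. Open points are library numbers 1 to 11, filled points 12 to 24 and lines are group means; the old and old repopulated points of Nr1h3 and Cd36 reach from the young level to 32.0 and 231 CPM.

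The comparison of old with young mice asks what differs with age in microglia libraries made without repopulation. By edgeR's quasi-likelihood test with Benjamini-Hochberg adjustment over all genes, 2 of the 10 genes rose, the LXR gene Nr1h3 and the triglyceride enzyme Dgat1, and none fell, where 2.83% of all tested genes were called. The median log2 fold change of the 10 genes was 0.47, against -0.01 over all tested genes. Both calls needed old replicate 3: without it the adjusted p was 0.0582 for Nr1h3 and 0.0554 for Dgat1, and calls over all genes went from 530 to 100. Among the old libraries, that one had the lowest microglia marker sum, 9909 CPM. It also had the highest monocyte and neutrophil marker sum, 1565 CPM. The part of other cell types in these calls was not tested.

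The largest set of calls came from old repopulated against young mice, which differ in both age and renewal. Nr1h3, Dgat1 and Cd36 rose and Abcg1 fell, 4 of the 10 genes, where 15.2% of all tested genes were called (9.29% higher and 5.92% lower). The median log2 fold change was 0.56 for the 10 genes and -0.02 over all genes. Each of the 4 calls remained in all 23 fits that left out 1 library.

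With all libraries in the model, repopulation on its own called none of the 10 genes by edgeR, in old mice (0.278% of all genes called) or in young mice (1.34% called). In old mice 2 of the 10 genes, Abcg1 and Cd36, had an unadjusted p under 0.05, and DESeq2 and voom with sample quality weights called none. In young mice 3 genes, Nr1h3, Abcg1 and Cd36, had an unadjusted p under 0.05, DESeq2 called 1 (Cd36, where it called 4.35% of all genes) and voom called 4 (Abca1, Abcg1, Dgat2 and Cd36, where it called 13.8% of all genes). Within numbers 12 to 24 edgeR called 2 of the 10 in old mice and 3 in young mice, where it called 12.7% and 9.3% of all genes. A fit of only the groups compared called 0 in old mice and 2 in young mice (0% and 7.5% of all genes). The 4 comparisons given so far share groups, so their values are not independent of each other.

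Old repopulated against young repopulated libraries, and the interaction (what repopulation changed in old mice minus what it changed in young ones), called 0 of the 10 genes and 0% of all genes by edgeR. None of the 10 genes had an unadjusted p under 0.05 in either, where 2183 and 1542 of all genes did. DESeq2 called none of the 10 in either comparison, and voom called 1 in the first (Mylip, log2 fold change -0.70, adjusted p 0.0477, where it called 17% of all genes) and none in the interaction. The interaction was largest for Nr1h3, at -1.84 ± 0.89 (SE, edgeR adjusted p 0.605). Within numbers 12 to 24, which hold all 3 young repopulated libraries, edgeR called 1 of the 10 genes in the interaction, Abca1 (0.54, adjusted p 0.0284), where it called 8.87% of all genes. In old repopulated versus young repopulated it called 5 there, where 36.3% of all genes were called: Nr1h3 (2.00), Plin2 (1.33), Dgat1 (0.78) and Cd36 (1.68) rose and Mylip fell by 1.22 on the log2 scale (edgeR adjusted p 0.00357, 0.0291, 0.00831, 0.00964 and 0.00275).

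**Figure D2:**
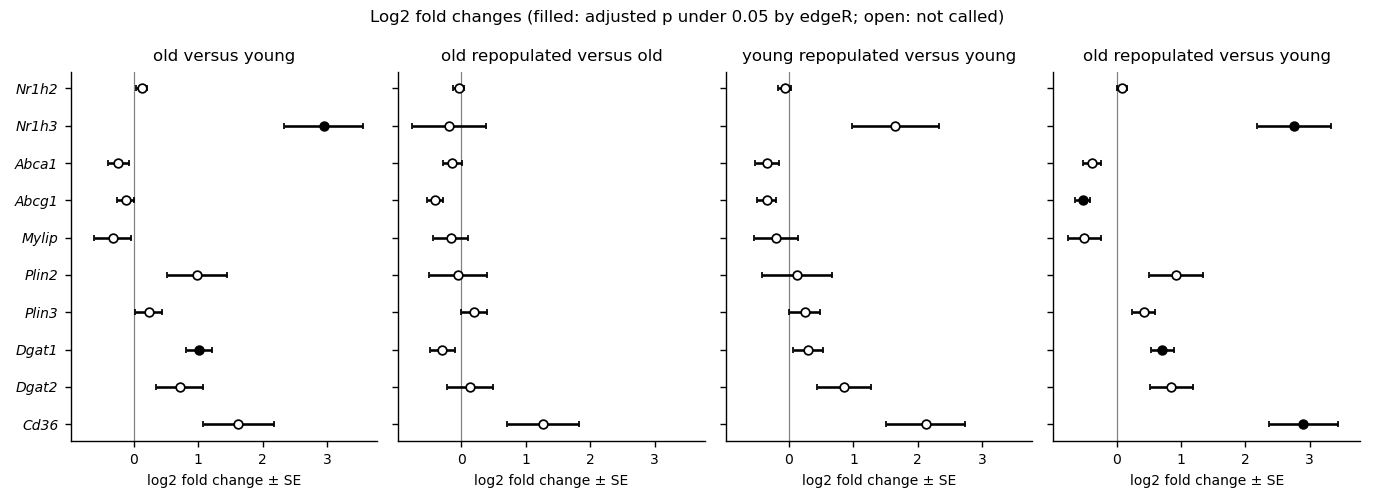
Log2 fold changes with standard errors for the 10 genes in 4 comparisons, filled where edgeR's adjusted p was under 0.05. Nr1h3 and Dgat1 are filled in old versus young, Nr1h3, Abcg1, Dgat1 and Cd36 in old repopulated versus young, and no gene in both repopulation comparisons.

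Nr1h2, which encodes LXR-beta (ENSMUSG00000060601.13, chr7:44549616-44553951 of GRCm38, minus strand), varied little between groups. It ranged from 53.7 to 71.7 CPM in young libraries, with a median of 59.1, and was 59.6, 62.15 and 55.6 CPM in young repopulated, 69.6, 63, 75.3, 68 and 61.3 in old, and 56.1 to 75.1 (median 64.1) in old repopulated libraries. The 4 ranges overlapped throughout. Its log2 fold change was 0.12 ± 0.09 in old versus young (SE, edgeR adjusted p 0.59) and 0.08 ± 0.08 in old repopulated versus young (SE, adjusted p 0.53), with 95% intervals of -0.07 to 0.30 and -0.08 to 0.25.

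Nr1h3, which encodes LXR-alpha (ENSMUSG00000002108.10, chr2:91184061-91202834, minus strand), showed the widest rise with age. It lay between 1.37 and 3.72 CPM in young libraries (median 1.91), and at 10.4, 6.20 and 3.91 CPM in young repopulated ones. The old libraries held 3.11, 13.5, 32.0, 8.16 and 27.4 CPM, and old repopulated libraries 1.84 to 29.4 CPM (median 12.6). All 3 young repopulated libraries lay above all young ones, as 5.97% of all tested genes did, whereas old replicate 1 and old repopulated replicates 1 and 2 lay within the young range. The log2 fold change was 2.95 ± 0.61 in old versus young (SE, edgeR adjusted p 0.0109) and 2.76 ± 0.58 in old repopulated versus young (SE, adjusted p 0.0034). Repopulation gave 1.65 ± 0.68 in young mice (SE, adjusted p 0.244) and -0.19 ± 0.57 in old mice (SE, adjusted p 0.967).

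The size of the Nr1h3 change was also read within each run of library numbers. Within numbers 12 to 24 the change was 3.87 in old versus young and 4.17 in old repopulated versus young (edgeR adjusted p 0.000204 and 4.59e-05). Within 1 to 11 it was 1.46 and 1.22, and neither was called (edgeR adjusted p 1 and 0.535). In that lower run edgeR called 0.00533% and 0.0107% of all genes in these comparisons and 0% in old repopulated versus old, so a missing call there says little about any gene. In the higher run it called 15.7% of all genes in old versus young and 41.1% in old repopulated versus young. The difference between the runs was 2.40 ± 0.95 for old versus young and 2.94 ± 0.82 for old repopulated versus young, and neither was called (SE, edgeR adjusted p 0.462 and 0.0648). With the run as a term beside group, both calls held, at 2.61 and 2.53 (adjusted p 0.0189 and 0.00257). GENCODE places the transcript Gm13783 on the same strand and the small nuclear RNA Gm23390 on the opposite strand within this locus, so reads there may have been divided between genes.

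Abca1, the exporter that loads cholesterol onto lipid-poor apolipoproteins (ENSMUSG00000015243.4, chr4:53030787-53159895, minus strand; its promoter is the first sequence printed above), was abundant and did not follow Nr1h3. It ranged from 685 to 1330 CPM in young libraries (median 1148), and was 889, 813 and 813 CPM in young repopulated ones. Old mice gave 914, 925, 834, 873 and 954 CPM, and the old repopulated ones 542 to 965 CPM (median 834). Every young library numbered 12 to 15 was above every other library, while those numbered 1 to 3 lay among the other groups. The log2 fold change was -0.24 ± 0.16 in old versus young (SE, edgeR adjusted p 0.504), -0.34 ± 0.19 in young repopulated versus young (SE, adjusted p 0.398) and -0.38 ± 0.14 in old repopulated versus young (SE, adjusted p 0.0598). Within numbers 12 to 24 edgeR called 15.7%, 9.3% and 41.1% of all tested genes in these 3 comparisons. There Abca1 fell in all 3, by 0.50, 0.56 and 0.52 on the log2 scale (edgeR adjusted p 0.00339, 0.00343 and 0.000851). Within 1 to 11 it was 0.20 in old versus young (adjusted p 1) and -0.04 in old repopulated versus young, and there were no young repopulated libraries.

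Abcg1, which passes cholesterol on to lipid-carrying particles (ENSMUSG00000024030.6), had its lowest group means after repopulation. It ranged from 166.5 to 256 CPM in young libraries (median 222), and was 218, 166 and 142 CPM in young repopulated ones. Values in old mice were 210, 176, 218, 179 and 239 CPM, and the old repopulated ones 128 to 183 CPM (median 155). The old repopulated and young ranges overlapped only between 166.5 and 183 CPM. The log2 fold change was -0.53 ± 0.11 in old repopulated versus young (SE, edgeR adjusted p 0.0034), a fall to 0.69 of the young level. It was -0.41 ± 0.12 in old repopulated versus old (SE, adjusted p 0.156), -0.35 ± 0.15 in young repopulated versus young (SE, adjusted p 0.274) and -0.13 ± 0.13 in old versus young (SE, adjusted p 0.702). Against young, the old repopulated change was -0.74 within numbers 12 to 24 (edgeR adjusted p 0.00153), -0.28 within 1 to 11 (adjusted p 0.498) and -0.50 with the run as a term (adjusted p 0.0031). Against old, it was called within 12 to 24 (-0.54, adjusted p 0.0384) and not within 1 to 11 (-0.28). Within numbers 12 to 24 edgeR called 41.1% of all genes against young and 12.7% against old.

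Mylip, the ligase that degrades lipoprotein receptors (ENSMUSG00000038175.10, chr13:45389742-45412022, plus strand), was low in 4 libraries of the old groups. It ranged from 203 to 298 CPM in young libraries (median 245), and was 236, 180 and 211 CPM in young repopulated ones. The old libraries held 281, 216, 95.3, 213 and 148 CPM, and the old repopulated ones 70.2 to 280 CPM (median 155). Old replicate 3 and old repopulated replicates 6, 7 and 8 were the 4 lowest of all 23 libraries, and all 4 carry numbers in the higher run. Its log2 fold change was -0.33 ± 0.29 in old versus young (SE, edgeR adjusted p 0.644) and -0.50 ± 0.25 in old repopulated versus young (SE, adjusted p 0.182). The latter was -1.33 within numbers 12 to 24 (adjusted p 0.000814), -0.22 within 1 to 11, and -0.76 with the run as a term (adjusted p 0.0105), by edgeR. In that comparison 41.1% of all genes were called within 12 to 24 and 24.5% with the run as a term.

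Plin2, the main droplet coat protein of macrophages, whose protein persists only on lipid droplets (ENSMUSG00000028494.12, chr4:86648386-86670060, minus strand), varied widely between libraries of one group in old mice. It ranged from 178 to 431 CPM in young libraries (median 369), and was 552, 305 and 247 CPM in young repopulated ones. Old mice gave 172, 737, 1465, 321 and 634 CPM, and the old repopulated ones 131 to 1130 CPM (median 617.5). The highest old library was 8.54 times the lowest and the highest old repopulated library 8.61 times the lowest, against 2.42 times in young libraries. Its log2 fold change was 0.98 ± 0.46 in old versus young (SE, edgeR adjusted p 0.308) and 0.92 ± 0.42 in old repopulated versus young (SE, adjusted p 0.137), with 95% intervals of 0.02 to 1.94 and 0.05 to 1.79. Old repopulated versus young passed without old repopulated replicate 1 (adjusted p 0.0388) and within numbers 12 to 24 (1.31, adjusted p 0.0178), and was 0.71 within 1 to 11, by edgeR. Within 12 to 24, 41.1% of all genes were called in that comparison.

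Plin3, a coat protein found in the cytosol and on small new droplets (ENSMUSG00000024197.9), changed less. It ranged from 25.3 to 38.8 CPM in young libraries (median 30.1), and was 43.4, 34.1 and 31.4 CPM in young repopulated ones. Values in old mice were 22.9, 37.6, 52.55, 27.8 and 39.3 CPM, and the old repopulated ones 20.15 to 51.6 CPM (median 45.6). Old repopulated replicate 1 was the lowest and old replicate 3 the highest of all libraries, and the 4 ranges overlapped. Its log2 fold change in old repopulated versus young was 0.42 ± 0.18 (SE, edgeR adjusted p 0.125), and it passed without old repopulated replicate 1 (adjusted p 0.0174), with the run as a term (0.47, adjusted p 0.0392) and within numbers 12 to 24 (0.66, adjusted p 0.0112).

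Dgat1, the triglyceride enzyme that mainly re-esterifies fatty acids taken up or released in the cell (ENSMUSG00000022555.11), was the only one of the 10 genes for which every old and old repopulated library lay above every young one. It ranged from 13.6 to 17.15 CPM in young libraries (median 16.7), and was 19.5, 20.9 and 18.6 CPM in young repopulated ones. The old libraries held 17.5, 34.7, 49.2, 25.2 and 34.6 CPM, and the old repopulated ones 18.5 to 41.4 CPM (median 23.9). All 3 young repopulated libraries also lay above the young range. Over all tested genes, 1.43% separated in this direction in old versus young, 0.983% in old repopulated versus young and 5.97% in young repopulated versus young. The log2 fold change was 1.01 ± 0.20 in old versus young (SE, edgeR adjusted p 0.00798) and 0.71 ± 0.18 in old repopulated versus young (SE, adjusted p 0.0107). It was 0.30 ± 0.23 in young repopulated versus young (SE, adjusted p 0.616) and -0.30 ± 0.19 in old repopulated versus old (SE, adjusted p 0.667). Within numbers 12 to 24 the first 2 were 1.12 and 1.04 (adjusted p 0.00152 and 0.000706), and within 1 to 11 they were 0.79 and 0.51 (adjusted p 1 and 0.425), by edgeR. In the higher run 15.7% and 41.1% of all genes were called in those 2 comparisons.

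Dgat2, the enzyme that mainly handles newly made fatty acids (ENSMUSG00000030747.5, chr7:99153658-99182719, minus strand), was near the bottom in level. It ranged from 1.38 to 10.9 CPM in young libraries (median 2.99), and was 5.43, 9.22 and 6.56 CPM in young repopulated ones. Old mice gave 5.51, 5.43, 10.9, 4.12 and 6.13 CPM, and the old repopulated ones 3.985 to 12.2 CPM (median 6.77). Young replicate 3 held 10.9 CPM where the other 6 young libraries reached 3.43, and that library decided the calls. With all libraries the log2 fold change was 0.71 ± 0.37 in old versus young, 0.85 ± 0.42 in young repopulated versus young and 0.85 ± 0.33 in old repopulated versus young (SE, edgeR adjusted p 0.368, 0.344 and 0.0849). Without young replicate 3 all 3 were called, at adjusted p of 0.0151, 0.0266 and 0.00168, with changes of 1.22, 1.36 and 1.35.

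Cd36 (ENSMUSG00000002944.15, chr5:17781690-17888801, minus strand; its promoter is the second sequence printed above) reached its highest levels after repopulation in old mice. It ranged from 4.86 to 21.5 CPM in young libraries (median 14.55), and was 78.3, 63.7 and 44.7 CPM in young repopulated ones. Values in old mice were 12.4, 59.5, 79.4, 15.9 and 52.8 CPM, and the old repopulated ones 13.2 to 231 CPM (median 75.8). All 3 young repopulated libraries lay above the young range, as they did for 5.97% of all tested genes. Of the 8 old repopulated libraries 7 lay above it. Old replicates 1 and 4 and old repopulated replicate 1 lay within the young range. The log2 fold change was 2.90 ± 0.53 in old repopulated versus young (SE, edgeR adjusted p 0.00146). It was 2.12 ± 0.61 in young repopulated versus young (SE, adjusted p 0.0867), 1.62 ± 0.55 in old versus young (SE, adjusted p 0.124) and 1.27 ± 0.56 in old repopulated versus old (SE, adjusted p 0.403).

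Within numbers 12 to 24 Cd36 rose in all 4 comparisons, by 3.83 in old repopulated versus young, 2.15 in young repopulated versus young, 1.79 in old versus young and 2.04 in old repopulated versus old (edgeR adjusted p 6.08e-05, 0.00657, 0.00965 and 0.0129). In that run 41.1%, 9.3%, 15.7% and 12.7% of all tested genes were called in those comparisons. Within 1 to 11 its changes were 1.78, 1.33 and 0.45 in the 3 comparisons that the run holds, and none was called. The difference between the runs was 2.03 ± 0.80 in old repopulated versus young (SE, edgeR adjusted p 0.149).

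**Figure D3:**
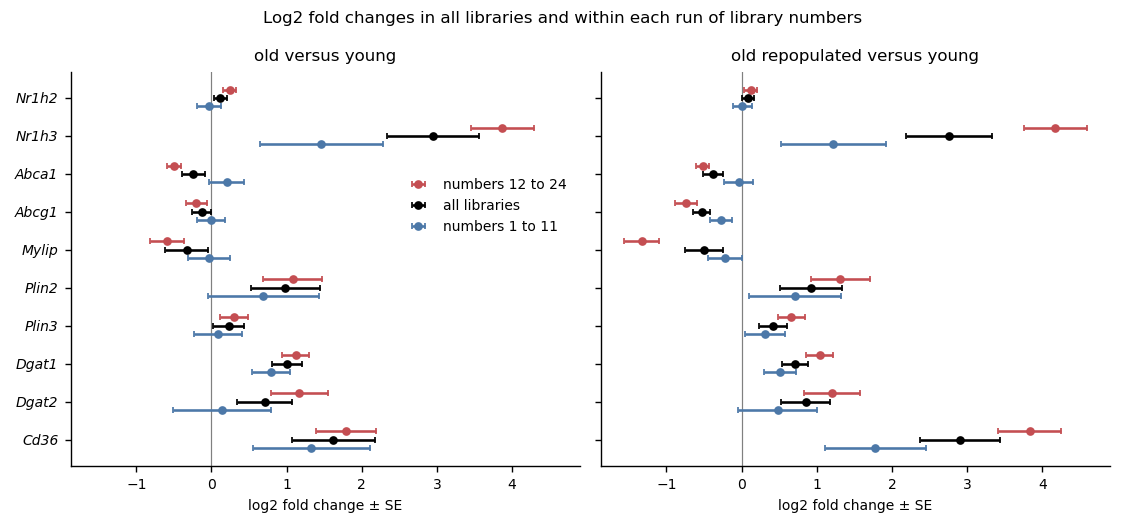
Log2 fold changes with standard errors in old versus young (left) and old repopulated versus young (right), from all libraries (black), numbers 12 to 24 (red) and numbers 1 to 11 (blue). The red points of Nr1h3 lie at 3.87 and 4.17, above the blue ones at 1.46 and 1.22, while those of Dgat1 lie closer together, at 1.12 and 1.04 against 0.79 and 0.51.

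The 10 genes were also compared with each other across the 23 libraries, after the mean of each group was subtracted. Pearson correlations of log2 CPM were tested for all 45 pairs by permuting libraries within groups 100000 times, with Benjamini-Hochberg adjustment over the pairs. In all, 18 pairs passed an adjusted p of 0.05, 13 of them positive and 5 negative. Plin2, Plin3, Cd36, Nr1h3 and Dgat1 were positively correlated in all 10 of their pairs, and each of the 5 was negatively correlated with Mylip. The exporters Abca1 and Abcg1 were correlated with each other and neither passed with Nr1h3. Abca1 also passed with Plin2 (r = 0.550) and Plin3 (r = 0.469), at permutation adjusted p of 0.0056 and 0.0399. Without the 2 libraries farthest from the median on Abca1, these r were 0.309 and 0.236.

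The closest pairs were Plin3 with Cd36 (r = 0.885, rho = 0.831, permutation adjusted p 0.000225 and 0.0009, n = 23) and Plin2 with Cd36 (r = 0.884, rho = 0.865, permutation adjusted p 0.000225 and 0.00045). Plin2 with Plin3 gave r = 0.870 and rho = 0.821 (permutation adjusted p 0.0003 and 0.00225). Nr1h3 with Plin2 gave r = 0.818 and rho = 0.807 (permutation adjusted p 0.0009 and 0.00247), and Abca1 with Abcg1 r = 0.671 and rho = 0.601 (0.00231 and 0.0136). Without the 2 libraries farthest from the median on the first gene, r was 0.802, 0.809, 0.765, 0.778 and 0.529 for these pairs in the same order. Mylip with Cd36 gave r = -0.836 and rho = -0.764 (permutation adjusted p 0.0009 and 0.00591), and Mylip with Plin3 r = -0.830 and rho = -0.806 (0.00045 and 0.00234). Both were -0.806 and -0.812 without the 2 farthest libraries. These 7 pairs also passed after centring by group and run of numbers, and the other 11 of the 18 did not.

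**Figure D4:**
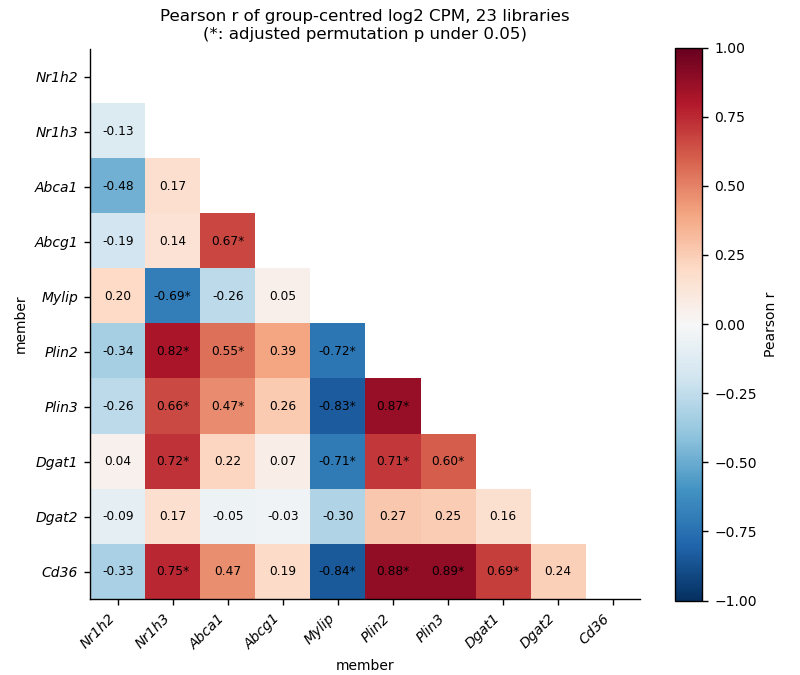
Pearson r for each pair of the 10 genes over 23 libraries, from log2 CPM with each group's mean subtracted, coloured from -1 (blue) to 1 (red). Asterisks mark the 18 pairs with an adjusted permutation p under 0.05, and the 5 blue asterisked cells all involve Mylip.

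Marker sums of microglia, of monocytes and neutrophils, and of border-associated macrophages moved with several of these genes. The 10 microglia markers summed to 24500 to 30410 CPM in young, 22190 to 25720 in young repopulated, 9909 to 25460 in old and 9107 to 28980 in old repopulated libraries. Of these 10, 1 was called lower in old versus young (Fcrls, log2 fold change -0.78, edgeR adjusted p 0.034). In old repopulated versus young 3 were called lower (Fcrls, Csf1r and P2ry12). The log2 fold change was negative for all 10 in both comparisons, with medians of -0.6 and -0.72. Over all tested genes 0.235% and 5.92% were called lower in these comparisons. The 10 monocyte and neutrophil markers summed to 43.05 to 175 CPM in young, 144 to 398 in young repopulated, 192 to 1565 in old and 141 to 1254 in old repopulated libraries. In old versus young 8 of the 10 rose, and in old repopulated versus young also 8. Over all tested genes 2.6% and 9.29% were called higher in these comparisons. Ly6c2 rose by 6.25 and 4.33 and Ccr2 by 3.93 and 3.85 on the log2 scale (edgeR adjusted p 0.00367, 0.00327, 0.0149 and 0.00393). In young repopulated versus young 1 of the 10 rose (Itgal, log2 fold change 2.15, edgeR adjusted p 0.0386), where 0.828% of all tested genes were called higher. Ly6g, which defines neutrophils, was at 0 in 3 young, 1 young repopulated and 2 old repopulated libraries and did not pass 0.962 CPM anywhere.

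The 8 border-associated macrophage markers summed to 62.2 to 238 CPM in young, 325 to 465 in young repopulated, 191.5 to 946 in old and 79.05 to 1319 in old repopulated libraries, and none was at 0 in any library. In old versus young 3 of the 8 rose (Clec12a, Ms4a7 and F13a1) and in young repopulated versus young 2 (Clec12a and Ms4a7). In old repopulated versus young 6 rose. Over all tested genes 2.6%, 0.828% and 9.29% were called higher in these comparisons. The log2 fold change was negative for 1 of the 8 in both comparisons of repopulated with young libraries. Median Cd163 was 15.3 CPM in young, 5.67 in young repopulated, 20.2 in old and 8.33 in old repopulated libraries. Astrocyte, endothelial, neuronal, oligodendrocyte, and platelet and erythroid marker sums reached at most 184 CPM in any library. Within groups, libraries with a lower microglia marker sum held less Mylip and more of Cd36, Plin3, Plin2, Nr1h3 and Dgat1.

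These relations between genes and marker sums were computed after the data were seen, for 30 combinations of 10 genes and 3 lists, over 23 group-centred libraries that share their normalisation. Against the microglia sum, r was 0.935 for Mylip (rho = 0.831, permutation adjusted p 5e-05 and 0.000525), -0.881 for Cd36 (rho = -0.863, 5e-05 and 0.0003) and -0.780 for Nr1h3 (rho = -0.862, 0.00372 and 0.0004). Without the 2 libraries farthest from the median sum they were 0.910, -0.851 and -0.740. After centring by run as well, they were 0.891, -0.814 and -0.551, with adjusted p of 0.002, 0.000825 and 0.155 by permutation. Dgat1 went from -0.736 to -0.529 with that centring (permutation adjusted p 0.00708 and 0.174), so for Nr1h3 and Dgat1 the relation did not pass within runs. Against the border-associated macrophage sum, r was 0.918 for Plin3 (rho = 0.909), 0.904 for Cd36 (rho = 0.871) and -0.865 for Mylip (rho = -0.815), each with a permutation adjusted p of 5e-05 for r, the unadjusted p of 1e-05 being the smallest that 100000 permutations can give. Without the 2 farthest libraries these were 0.869, 0.852 and -0.831. The monocyte and neutrophil sum gave r of -0.861 for Mylip, 0.806 for Cd36, 0.717 for Nr1h3 and 0.678 for Dgat1. Their permutation adjusted p was 8.57e-05, 0.000267, 0.00473 and 0.00769. After centring by run as well, r was -0.758, 0.729, 0.412 and 0.445 (permutation adjusted p 0.00993, 0.00993, 0.213 and 0.181). With this sum Plin2, Plin3 and Dgat2 also passed by r (0.688, 0.723 and 0.478), and Nr1h2, Abca1 and Abcg1 did not. Dgat2 did not pass by rank (rho = 0.332, permutation adjusted p 0.207). Its r was 0.301 without the 2 libraries farthest from the median sum, and 0.657 after centring by run as well. Against the microglia sum, Abca1, Abcg1 and Nr1h2 gave r of -0.255, -0.045 and 0.055 (permutation adjusted p 0.288, 0.831 and 0.831). The part of other cell types in the changes of Nr1h3, Dgat1, Cd36 and Mylip was not tested.

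**Figure D5:**
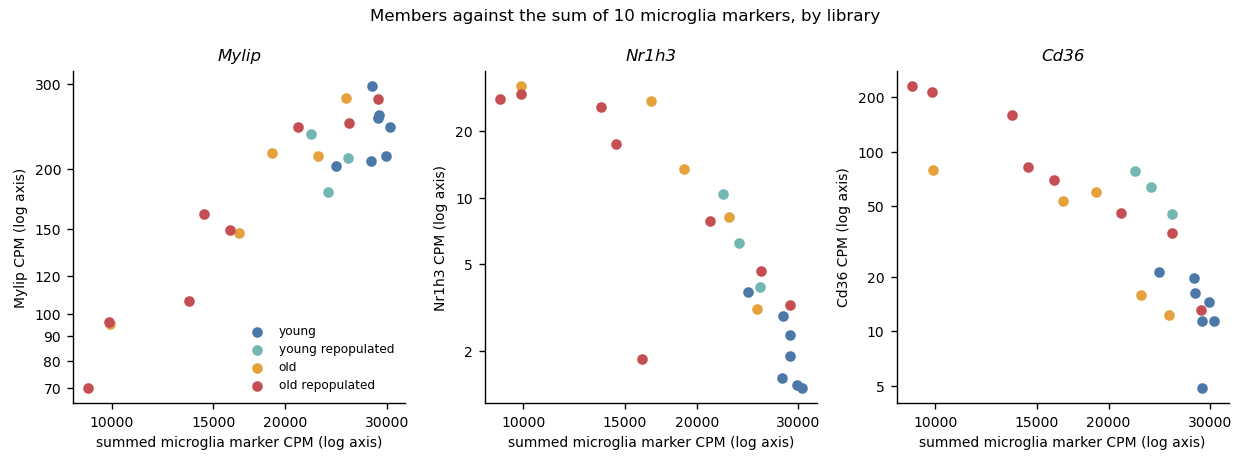
CPM of Mylip, Nr1h3 and Cd36 against the summed CPM of 10 microglia markers, 1 point per library, both axes logarithmic, coloured by group. Mylip rises with the marker sum and Nr1h3 and Cd36 fall along it, and old repopulated replicate 2 sits apart with 1.84 CPM of Nr1h3 at a low marker sum.

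The other genes of these pathways were read from 5 lists. Over all tested genes, edgeR called 2.83% in old versus young and 1.34% in young repopulated versus young. It called 15.2% in old repopulated versus young and 0.278% in old repopulated versus old. Among LXR partners, cofactors and further LXR targets, 5 of 17 tested genes rose in old versus young and none fell. They include Smpdl3a, an LXR-induced phosphodiesterase (129 ± 84.3 CPM in old, SD, n = 5; 39.0 ± 11.6 in young, SD, n = 7; log2 fold change 1.73), the phospholipid transfer protein Pltp (2.27) and the RXR partner Rxrg (1.60), with edgeR adjusted p of 0.0186, 0.0363 and 0.0251. In young repopulated versus young 2 rose, the lipid carrier Apoe (20870 ± 4708 CPM, SD, n = 3, against 6916 ± 2106, SD, n = 7; log2 fold change 1.59, edgeR adjusted p 0.0251) and Rxrg (1.83, adjusted p 0.0379). In old repopulated versus young 6 rose and 3 fell. Rxrg (1.88) and Smpdl3a (1.56) were among the rises, and Lpcat3, an LXR target that remodels membrane phospholipids, fell by 0.73 on the log2 scale (edgeR adjusted p 0.00195, 0.00628 and 0.000448). None of the 17 was called in old repopulated versus old, where the smallest p was that of Arl4c (-0.23, adjusted p 0.254). The median log2 fold change of the list was 0.18, 0.10 and 0.23 in the first 3 of these comparisons.

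Among 20 genes of cholesterol uptake, trafficking, esterification and oxysterols, 5 rose and 4 fell in old repopulated versus young. In that comparison 15.2% of all tested genes were called. None of the 20 was called in the other 5 comparisons. The sterol carrier Stard4 rose by 1.17, while Scarb2, Gramd1a, a carrier of cholesterol between membranes, and the lipoprotein receptor Scarb1 fell by 0.40, 0.74 and 0.52 on the log2 scale (edgeR adjusted p 0.00146, 0.00473, 0.00473 and 0.0121). Where none was called, the genes with the smallest p were Scarb1 in old versus young (-0.43, adjusted p 0.155) and young repopulated versus young (-0.68, adjusted p 0.071), and Ch25h, which makes 25-hydroxycholesterol, in old repopulated versus old (0.93, adjusted p 0.117). The median of this list was 0.21 in old repopulated versus young.

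Of 18 genes of droplet formation and coat, 17 were found and 10 tested. Only Rab18, a small GTPase on droplets, was called, at 0.24 in old repopulated versus young (104 ± 12.96 against 88.1 ± 4.07 CPM, SD, n = 8 and 7, edgeR adjusted p 0.034). In that comparison 15.2% of all tested genes were called, and the list's median was 0.05. Hilpda, which inhibits the lipase ATGL, gave 1.74 in old repopulated versus young repopulated (edgeR adjusted p 0.401).

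Among 18 tested genes of triglyceride synthesis and lipolysis, 5 rose and 3 fell in old repopulated versus young, where 15.2% of all genes were called. None of the 18 was called elsewhere. Abhd5, the activator of the lipase ATGL, rose by 0.50, and G0s2, an inhibitor of the same lipase, by 1.57 (edgeR adjusted p 0.00816 and 0.0172). Mgll, the monoacylglycerol lipase, fell by 1.88 on the log2 scale, with 40.0 ± 4.98 CPM in young libraries and 10.8 ± 9.53 after repopulation in old mice (SD, n = 7 and 8, edgeR adjusted p 0.00802), and Lpin2 fell by 0.42 (adjusted p 0.00553). The list's median was -0.01. In young repopulated versus young the smallest p was that of Agpat2 (0.59, adjusted p 0.0514).

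Among 17 tested genes of fatty acid uptake, scavenger receptors and PPARs, 2 rose in old versus young, the nuclear receptor Pparg (3.23, 3.35 ± 3.16 against 0.354 ± 0.29 CPM, SD, n = 5 and 7) and the scavenger receptor Scarf1 (1.46), with adjusted p of 0.0348 and 0.0424 by edgeR. In old repopulated versus young 5 rose and none fell, among them Pparg (3.12), the fatty acid carriers Fabp5 (2.11) and Fabp4 (3.45) and the scavenger receptor Olr1 (1.53), with edgeR adjusted p of 0.0101, 0.0133, 0.0247 and 0.0149. The list's median was 0.26 and 0.22 in these comparisons, where 2.83% and 15.2% of all tested genes were called. None was called in old repopulated versus old or in young repopulated versus young, where the smallest p was that of Slc27a4 (0.22, adjusted p 0.312) and Scarf1 (1.53, adjusted p 0.0846).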

How the data were processed

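Poly(A) RNA of 23 microglia libraries was read, per the labels' protocols, as single reads of 50 nt from stranded libraries made from 2.4 to 147 ng of RNA. The submitters' processing notes name FastQC 0.11.5, STAR, RSEM, limma and GRCm38. Neither the annotation release nor the strand setting of the counting is given in the sources used here. The authors, per the file headers, deposited 1 table per library with the expected count of each gene, an estimate that need not be whole. Of these deposited expected counts, 87.26% were whole within 1e-06, and all were rounded. The deposited TPM values, which the authors' RSEM tables scale by length and library, served only to check the order of levels. The deposited effective length of each gene, in bases, served to express CPM per kb. All columns were mapped to samples (0 left over). No 2 libraries were identical.

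Counts were tested in R 4.3.3 with edgeR 4.0.16 (filterByExpr, TMM, glmQLFit, glmQLFTest), with all 23 libraries in a single model of the 4 groups without covariates. There were 6 contrasts, and p-values were Benjamini-Hochberg adjusted over all 18720 tested genes, with a threshold of 0.05. CPM values are TMM-scaled, and log2 CPM used a prior count of 2. The alternatives were RLE and upper-quartile factors, no filter, DESeq2 1.42.0, voom with sample quality weights (limma 3.58.1), only the groups compared, the run of library numbers as a term or taken singly, and leaving out each library. In counts simulated for old versus young on 18720 genes, 42 of 100 genes changed 2-fold and 61 of 100 changed 4-fold were called, with 4 false calls.

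The genes and lists were chosen with earlier results of these data known. The text names all 10 genes, and from each pathway list up to 4 called genes per comparison with the smallest adjusted p, or the gene with the smallest p where none was called and the comparison is discussed. For each of the 10 genes it adds the 2 genes with the highest Spearman correlation over group-centred libraries, leaving out symbols of Gm with digits and those that end in Rik or -ps, which keeps clone-named genes. The symbol Spart was not matched in the tables. Some list genes that the rule would name are not reported here. Coordinates are from GENCODE M21 (GRCm38) where the gene version was identical, and promoters from RefSeq (GRCm38.p6).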

Additional observations from a re-analysis of the deposited data

Results flagged for a closer look

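Within the young group, Dgat2 in replicate 3 held 10.87 CPM, far from the other 6 young libraries, and the gap to the nearest of them was 0.784 of the group's whole range. The same library stood apart from all others on the second principal component. Within the old repopulated group, Dgat2 in replicate 6 held 12.17 CPM, a gap of 0.544 of the range to the nearest library. Of 30 sets of values checked (10 genes in the young, old and old repopulated groups), these 2 had such a distant library, and chance alone gives about 1 in 20.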

How the results depend on the processing

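RLE factors and no filter left the count of called genes unchanged in each comparison. The count changed by over 1.5 times as follows, from 2 in old versus young, 0 in young repopulated versus young, 4 in old repopulated versus young and 0 elsewhere. Voom with sample quality weights gave 5, 4 and 9 in those, and 1 in old repopulated versus young repopulated, where it called 12.6%, 13.8%, 35.5% and 17% of all genes. DESeq2 gave 1 and a fit of only the groups compared 2 in young repopulated versus young. Library numbers 12 to 24 alone gave 4, 3 and 9 in those, 2 in old repopulated versus old, 5 in old repopulated versus young repopulated and 1 in the interaction, with 15.7%, 9.3%, 41.1%, 12.7%, 36.3% and 8.87% of all genes called. Numbers 1 to 11 alone gave 0 in old versus young and 0 in old repopulated versus young, where 1 and 2 of 18746 genes were called, so these counts of 0 carry no information on the 10 genes. The called pairs went from 18 to 7 after centring by group and run. The cause of these shifts was not tested.

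Over fits without 1 library, the count of called genes ranged from 0 to 3 in old versus young, 0 to 1 in young repopulated versus young, 4 to 6 in old repopulated versus young, and was 0 in each fit of the other 3 comparisons. The calls lost were those of Nr1h3 and Dgat1 without old replicate 3, in old versus young. Those gained there were Dgat2 without young replicate 3 and Cd36 without old replicate 1. In young repopulated versus young they were Dgat2 without young replicate 3 (adjusted p 0.0266) and Cd36 without old repopulated replicate 1 (adjusted p 0.0403), by edgeR. In old repopulated versus young they were Abca1 without young replicate 1, young replicate 3 or old repopulated replicate 3, Plin2 and Plin3 without old repopulated replicate 1, and Dgat2 without young replicate 3.

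Log2 fold changes that changed sign were uncalled in both fits. With voom these were Plin2 in old repopulated versus old (0.30) and young repopulated versus young (-0.10), Abca1 in old repopulated versus young repopulated (0.02), and in the interaction Nr1h2 (-0.01), Abcg1 (0.11), Mylip (-0.30), Plin2 (0.40) and Plin3 (0.12). With the run as a term they were Plin2 (0.08) in old repopulated versus old, Mylip (0.08) and Plin2 (-0.20) in young repopulated versus young, Abca1 (0.14) in old repopulated versus young repopulated, and in the interaction Nr1h2 (-0.04), Abcg1 (0.01), Mylip (-0.46), Plin2 (0.28) and Plin3 (0.18). In numbers 12 to 24 they were Nr1h3 (0.31) and Plin2 (0.22) in old repopulated versus old, Nr1h2 (0.05) and Plin2 (-0.02) in young repopulated versus young, Abca1 (0.04) and Dgat2 (0.01) in old repopulated versus young repopulated, and in the interaction Nr1h2 (-0.17), Mylip (-0.63), Plin2 (0.24) and Plin3 (0.16). In numbers 1 to 11 they were Nr1h2 (-0.03) and Abca1 (0.20) in old versus young, and Nr1h2 (0.03) and Plin2 (0.02) in old repopulated versus old.

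Without 1 library, the sign changed in old repopulated versus old for Nr1h2 (-0.07 to 0.01), Nr1h3 (-0.45 to 0.18), Mylip (-0.34 to 0.01), Plin2 (-0.31 to 0.45) and Dgat2 (-0.03 to 0.41), in young repopulated versus young for Plin2 (-0.29 to 0.34), and in old repopulated versus young repopulated for Abca1 (-0.08 to 0.03), Abcg1 (-0.32 to 0.00) and Dgat2 (-0.17 to 0.21). In the interaction it changed for Nr1h2 (-0.02 to 0.08), Abcg1 (-0.19 to 0.13), Mylip (-0.14 to 0.19), Plin2 (-0.45 to 0.33) and Plin3 (-0.20 to 0.12). No paired analysis was possible because the titles number each library once across all groups, and the replicate numbers used here were given in accession order and pair nothing. At this size the test misses many real changes, so an uncalled gene is not shown to be unchanged.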

Other observations

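Over the 23 group-centred libraries, each of the 10 genes was compared with all other tested genes by Spearman correlation, given here as a description. Nr1h3 was most like Cgnl1 (rho = 0.969) and Hax1 (0.961), Plin2 like Nceh1 (0.983), the neutral cholesterol ester hydrolase, and Sdcbp (0.966), and Cd36 like Ptpn7 (0.956) and Arpc5 (0.951). Plin3 was most like Fam234a (0.94) and Hip1 (0.939), and Mylip like the complement receptor C5ar2 (0.945) and St14 (0.943). Dgat1 was most like Tcp11l1 (0.897) and Atp8b2 (0.889). Abca1 was most like Tmem254b (0.902) and Aak1 (0.838), and Abcg1 like the lysosomal gene Grn (0.792) and Abraxas2 (0.762). Nr1h2 was nearest to Cyth2 (0.823) and Srsf2 (0.773), and Dgat2 to the clone-named gene AC125399.1 (0.761) and Rnf130 (0.732). The libraries share their normalisation, so some of each value can come from scaling.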
